A study of Mus musculus with 319 samples.

Results

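Wild-type thymic tuft cells of 2 collections, sorted and sequenced 1 cell to a well by the same protocol, were compared gene by gene. The wells named kw_tuft, which the labels assign to batch 2, were set against the wells named June29, which the labels assign to batch 1. The wells named June5, also of batch 1, served as a further set for the direction of each difference. A second deposited label, headed Batch, has the values 1 and 2 within the kw_tuft wells, 3 in June29 and 4 in June5. Its values 1 and 2 are called plates 1 and 2 of batch 2 here, a name the label does not give. Members were the wells labelled with 1 cell that held at least 10000 reads on genes, at least 1000 genes and at most 20% mitochondrially encoded reads. They came to 89 cells of 92 wells in batch 2 and 87 cells of 95 wells in June29, out of 314 wells with 1 cell in the whole series. Of 31 June5 wells, 29 were kept. All of these cells came from mice of strain C57BL/6.Il25 that were homozygous for Flare25, a reporter allele of the cytokine gene Il25, so no set lacks the reporter. The mice were 6 weeks old, naive and of mixed sex. Thymi were digested with Liberase and DNase and enriched on Percoll, and UVBlue-, CD11c-, CD45-, EPCAM+, MHCIIlo, Flare25+ cells were sorted. Libraries followed Smart-seq2, which reads whole polyadenylated transcripts, with ERCC spike-in RNA. No label names the animal of a cell, so each set is 1 sample and no difference between sets has a replicate check or a p-value.

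Tuft cells are rare chemosensory epithelial cells. They carry taste receptors and a taste-type signalling cascade, they are the main epithelial source of Il25, and in the thymus they lie in the medulla and depend on the transcription factor Pou2f3. Comparing the same sorted cell type between collections shows which genes differ with the collection itself, before any genotype or state is compared across it. Immediate early genes are of interest in such a comparison because their transcripts appear within minutes of a stimulus, and genes of energy metabolism because they are often used as references.

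The collections differed in more than the date. A median of 566923 gene reads per cell was counted in batch 2 (88822 to 1470020), 1150170 in June29 (157592 to 2827450) and 539655 in June5 (101578 to 2927690). Among the kept cells, the median mitochondrially encoded share was 4.16% in batch 2, 9.53% in June29 and 5.49% in June5. Xist reads without reads of the Y-linked genes marked 42 cells of batch 2, 0 of June29 and 7 of June5, and the reverse marked 30, 66 and 13 (5 or more reads of one and fewer than 5 of the other). The set, its batch, its depth and its mix of sexes cannot be told apart here. X- and Y-linked genes were left out, which leaves any sex difference of other genes in place. As an alternative for sex, 22 cells of batch 2 and 65 of June29 with Y-linked reads and no Xist reads were compared alone, and 26 of 35 list medians then moved by 0.25 or more on the log2 scale. Because June29 was deeper, shares of cells with a gene were taken after thinning each cell to 272687 reads, which left 77, 85 and 22 cells in the 3 sets (12, 2 and 7 were too shallow). A cell was positive with 5 or more reads. Levels are CPM, the reads of a gene scaled to the gene reads of the pooled kept cells of a set. Reads carry no molecular identifiers, so every interval given covers counting error only. No 2 wells held identical counts, and no doublet caller was run on wells sorted with 1 cell each.

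Most cells of both sets carried the tuft profile. The summed level of 30 tuft genes was 26048 CPM in batch 2, 24848 CPM in June29 and 33619 CPM in June5, and 2 or more of them were positive in 76 of 77 and 85 of 85 thinned cells. The sum in the lowest cell was 100.1 CPM in batch 2 and 1277 CPM in June29, against medians of 27387 and 24356 CPM. Avil, an actin-binding protein of the tuft cell's microvilli, stood at 3077 and 2668 CPM on the 2 plates of batch 2 and at 3432 CPM in June29. Trpm5, the cation channel of the taste cascade, stood at 2274 CPM in batch 2 and 2374 CPM in June29. Of the 29 tuft genes at 20 CPM or more, 0 were past the size rule given next, and their median log2 ratio was 0.28. That rule called 4.57% of all tested genes higher and 1.3% lower, so 0 of 29 is not read as stability.

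A gene was called by size alone, since there is no test. It needed 20 CPM in the higher set, a ratio of at least 2-fold on the log2(CPM + 1) scale, and a gap of 15 points or more, with that same sign, between the percentages of positive cells. Of 7838 genes at 20 CPM or more in either set, 460 were called. Batch 2 was higher than June29 for 358 of them (4.57% of the genes tested) and lower for the others (1.3%). The median log2 ratio of all 7838 was 0.16. It was -0.01 under median-of-ratios scaling and 0.05 under edgeR's TMM factors. The split depended on the thinning and on the cells compared. With unthinned shares, 2.78% of the genes were higher and 2.21% lower, so that 55.8% of the calls were higher in place of 77.8%. Among the cells with Y-linked reads and no Xist reads, 50.0% of the calls were higher. The same rule applied to the 2 plates of batch 2, which hold 48 and 41 kept cells of 1 collection, called 1.94% of 7988 genes higher on plate 2 and 3.34% lower. Plates within a collection thus also gave calls both ways, at rates of like order to those between the collections. The account that follows therefore gives each gene on both plates.

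**Figure D1:**
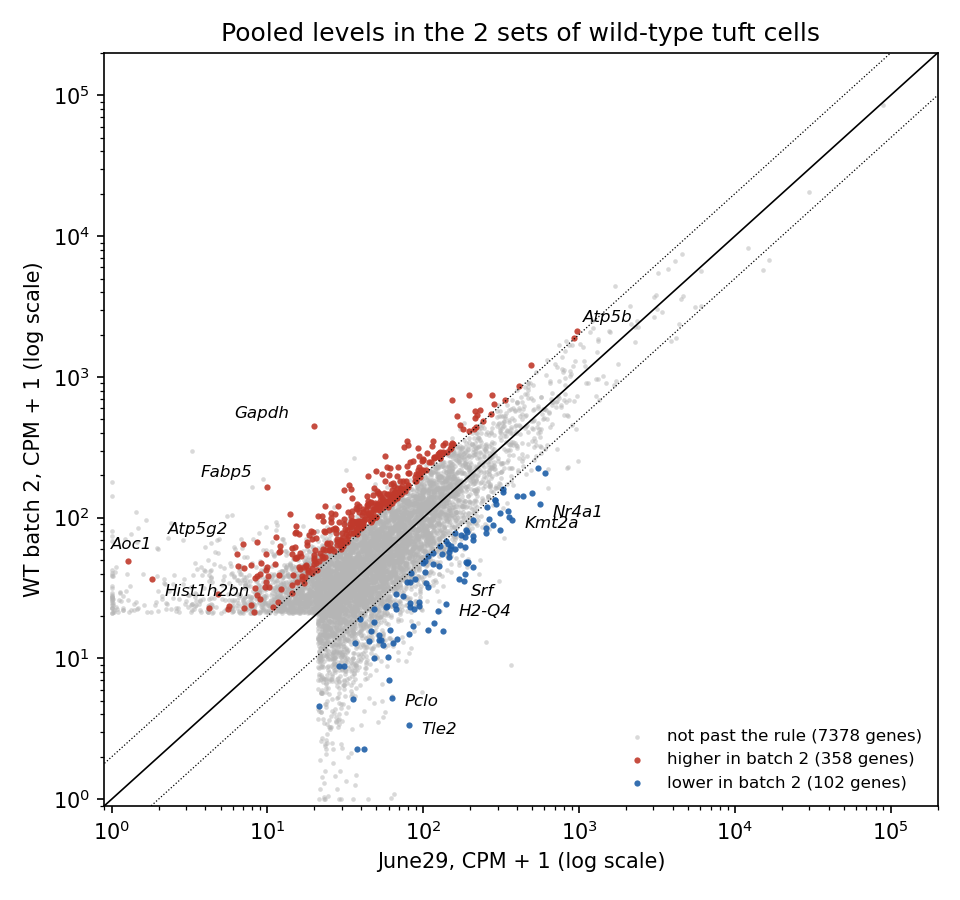
Pooled level of each of the 7838 tested genes in June29 (horizontal, CPM + 1, log scale) against batch 2 (vertical, CPM + 1, log scale), with the 358 genes higher in batch 2 and the lower genes coloured. Gapdh, at 18.8 CPM in June29 and 445 CPM in batch 2, lies far from the diagonal, while tuft genes such as Avil and Trpm5 lie on it.

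Gapdh, a glycolytic enzyme widely used as a reference gene, showed the widest gap in the share of positive cells among the genes higher in batch 2. Its level was 476.6 CPM on plate 1 and 405.6 CPM on plate 2, against 18.8 CPM in June29 (95% Poisson interval 18 to 19.6) and 62.2 CPM in June5. The lowest, median and highest batch 2 cells had 0, 352 and 1222 CPM, and those of June29 had 0, 2.41 and 253 CPM. It was positive in 90.9% of thinned batch 2 cells (70 of 77, exact binomial interval 82.2 to 96.3%), in 24.7% of June29 cells (21 of 85, 16 to 35.3%) and in 63.6% of June5 cells. Without thinning the first pair of shares was 86.5% and 44.8%. June29 was thus low and both plates were high, the single cells of the sets overlapped, and June5 lay between. The log2 ratio of batch 2 to June29 was 4.49. Gapdh lies on GRCm38 chromosome 6 from 125161715 to 125166467, on the minus strand.

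The rest of glycolysis leaned toward batch 2 by far less than Gapdh. Of 16 tested members of the list, 3 were higher in batch 2 (Gapdh, Ldha and Pgam1; 4.57% of all genes were), 0 were lower, and 14 had a positive log2 ratio, with a median of 0.64 beside 0.16 for all genes. Aldoa, which splits fructose bisphosphate just before the Gapdh step, stood at 1171 and 1323 CPM on the plates and 699 CPM in June29 and was not called. Tpi1, the enzyme directly upstream, stood at 503 and 444 CPM against 331 CPM. Ldha, lactate dehydrogenase, at 289 and 344 CPM against 150.5 CPM, was past the rule by a narrow margin and was lost under 12 of 20 alternative settings. The 5 members with few bases in common with other genes had a median of 0.01, and the list had -0.03 among the cells with Y-linked reads and no Xist reads.

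The nuclear-encoded respiratory chain leaned toward batch 2 as a group. Of 34 tested subunits, 6 were higher in batch 2 (4.57% of all genes were), 0 were lower and 32 had a positive log2 ratio, with a median of 0.64 beside 0.16 for all genes. Set against genes of like length and GC content the median was 0.19, and of the 6 calls that of Cox6c alone was kept. The plates gave 0.70 and 0.62. Against June5 the median was 0.06, so June5 lay with batch 2 on this list and not with June29. The called members were Cox8a and Cox6c of complex IV, Ndufs3 of complex I, Sdhc of complex II, and Atp5b and Atp5d of the ATP synthase. Cox8a stood at 661.5 and 467.6 CPM on the plates, 213 CPM in June29 and 534 CPM in June5, a log2 ratio of 1.42. Sdha of complex II, at 510 and 702 CPM against 543 CPM, and Ndufa10 of complex I, at 80.5 and 73.4 CPM against 102.02 CPM, were not called.

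Small subunits outside that list had wider gaps, and they are named here because their values were seen to be large. Atp5l, the g subunit of the ATP synthase, stood at 119.9 and 85.6 CPM on the plates, 13 CPM in June29 and 32.5 CPM in June5, and was positive in 92.2%, 27.1% and 50.0% of thinned cells. Its median cell was at 77.9 CPM in batch 2 and 8.93 CPM in June29. The copy Atp5l-ps2 was summed with the 10 entries that share its words, Atp5l among them. That sum was 190.3 CPM in batch 2, 71.1 CPM in June29 and 162.5 CPM in June5. Atp5g2, a c subunit of the same enzyme, stood at 55.9 and 73.2 CPM against 5.97 CPM in June29, with shares of 75.3% and 10.6%. Ndufs5, a complex I subunit, stood at 88.6 and 62.8 CPM against 14.1 CPM, with shares of 80.5% and 23.5%. Each of these genes was higher on both plates than in either June set, but with the 2 entries that share its words Atp5g2 summed to 173.6 CPM in batch 2 and 198.9 CPM in June5. Ndufb4, also of complex I, had a log2 ratio of 2.05. With the 1 entry that shares its words the ratio was 1.43, and 0.48 over June5.

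The 13 genes of the mitochondrial genome went the other way. Of 9 tested, 8 had a negative log2 ratio, with a median of -0.85, and none was called. Of those 8, mt-Nd4 and mt-Cytb were past 2-fold, and the shares of positive cells in batch 2 and June29 were less than 15 points apart for each of the 8. The list summed to 21691 CPM in batch 2, 41340 CPM in June29 and 28269 CPM in June5. Cytochrome b, mt-Cytb, stood at 5503 and 6070 CPM on the plates against 15159.5 CPM in June29, and mt-Co1, a core subunit of complex IV, at 7546 and 8977 CPM against 12176.5 CPM. These are the same reads that give June29 its higher mitochondrial share.

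Some translation factors and proteasome subunits were called higher in batch 2, but all 8 of them lost the call both against genes of like length and GC content and among the cells with Y-linked reads and no Xist reads. Of 24 translation factors tested, 3 were higher (Eif3h, Eif1 and Eef1a1; 4.57% of all genes were) and 0 lower, with a median log2 ratio of 0.54 beside 0.16 for all genes, and of 0.03 over the members with few bases in common with other genes. Eif1, which helps select the start codon, stood at 672 and 614.5 CPM against 286 CPM. Of 26 proteasome subunits, 5 were higher (Psmd8, Psmb3, Psma6, Psmb5 and Psmd2) and 0 lower, with a median of 0.41. Genes of 1500 to 2000 bases, a range that holds the median proteasome gene (1705 bases), were called higher in 7.9% of cases and had a median of 0.49, and against genes of like length and GC content the proteasome median was -0.13. Psma6, of the catalytic core, stood at 241 and 300.2 CPM against 116.1 CPM in June29 and 208.5 CPM in June5. Psmd2, a subunit of the regulatory particle, was the least stable of them and turned to a log2 ratio of -0.032 among cells with Y-linked reads alone. Sec61g of the protein translocon, named after its values were seen, stood at 45.4 and 42 CPM against 8.97 CPM in June29 and 9.75 CPM in June5. Tomm7 of the mitochondrial import pore, named in the same way, had a log2 ratio of 1.34.

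Among histone genes, Hist1h2bn had the widest gap in the share of positive cells, under those of Gapdh, Atp5l and Atp5g2. Hist1h2bn, a replication-type H2B gene of 381 bases, stood at 38.7 and 31.4 CPM on the plates, 0.805 CPM in June29 and 0.360 CPM in June5. It was positive in 51 of 77 thinned batch 2 cells (66.2%), 2 of 85 June29 cells (2.35%) and 0 of 22 June5 cells, which allows a share of up to 13.6% (3 of 22). However, 88% of its 31-base words occur in other genes, and with the 12 entries that hold 10% or more of its words added the sums were 531 and 320 CPM, a log2 ratio of 0.73. H3f3a, which encodes the replacement histone H3.3, stood at 345 and 359 CPM against 77.4 CPM and 168.8 CPM in June5. Hist1h1c, a linker histone, stood at 543 and 512 CPM against 162.7 CPM, but June5 had 884 CPM. Of 14 histone genes tested, 3 were higher, 0 lower, and the median was 0.42. Snrpg, a core protein of the splicing snRNPs named after its values were seen, stood at 49.3 and 43 CPM against 8.04 CPM and 10.0 CPM in June5, with shares of 66.2%, 11.8% and 18.2%. With the 1 entry that shares its words, its log2 ratio to June29 fell from 2.39 to 1.75.

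Aoc1 was called although few cells of batch 2 held it. Aoc1, diamine oxidase, which degrades histamine, stood at 40.7 and 57.4 CPM on the plates, 0.265 CPM in June29 and 0.520 CPM in June5. Positive cells were 12 of 77 in thinned batch 2 (15.6%) and 0 of 85 in June29, which allows a share of up to 3.53% (3 of 85). Its log2 ratio was 5.28, and the 50-cell well of batch 2 held 73.6 CPM. Because the share sat just past the 15-point limit, the call was lost under 4 alternative settings, while the ratio was 3.34 or more under all 20. The lowest batch 2 cells for Avil, at 1.62, 2.21, 5.89 and 50.6 CPM, all held Aoc1, at 62.4, 738.5, 36.1 and 629.3 CPM. Other batch 2 cells held Aoc1 at 697.4, 546.6 and 495.9 CPM with Avil at 1415, 2958 and 3740 CPM. The call thus rests in part on cells low in this tuft gene, and whether it holds without them was not tested. Aoc1 lies on chromosome 6 from 48872896 to 48909188, on the plus strand.

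Rhoc, Sptssa and Tek were past the rule under all 20 alternative settings, and no other named gene higher in batch 2 was. Rhoc, a small GTPase of the actin cytoskeleton, stood at 93 and 111.1 CPM on the plates, 20.0 CPM in June29 and 45.4 CPM in June5. Its transcripts were positive in 46.8% and 15.3% of the thinned cells of batch 2 and June29, but in 59.1% of those of June5. Sptssa, a small subunit of serine palmitoyltransferase, which opens sphingolipid synthesis, stood at 54.2 and 80.7 CPM against 7.54 CPM and 39.5 CPM in June5. Tek, the angiopoietin receptor, stood at 229 and 231 CPM against 77.4 CPM and 194 CPM in June5. For Tek, June5 lay close to batch 2. Of the 10 endothelial markers, 3 reached 20 CPM and only Tek was called (4.57% of all genes were called higher).

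Among the called members of the lists, Colq, Cdhr5, Tas2r117 and Fdft1 were lowest in June29, and June5 lay near or above batch 2. These 4 were picked after their values were seen and stand for no list. Colq, the collagen tail that anchors acetylcholinesterase, stood at 162.1 and 91.1 CPM on the plates, 43 CPM in June29 and 223 CPM in June5. Cdhr5, a protocadherin of microvillus tips, stood at 229 and 357.5 CPM, 104.1 CPM and 361.5 CPM in the same order. Tas2r117, a bitter receptor, stood at 69.5 and 55.4 CPM, 16.9 CPM and 65.2 CPM. Fdft1, squalene synthase of the cholesterol pathway, stood at 150.3 and 171.1 CPM, 33.5 CPM and 166.6 CPM. For these 4 genes the June29 value was the one apart, and both other collections were 2-fold or more above it. With the 2 entries that share its words, however, Fdft1 summed to 391.8 CPM in batch 2, 302 CPM in June29 and 490 CPM in June5, which is under 2-fold. Colq was the 1 called gene of 5 tested acetylcholine genes, Tas2r117 of 19 bitter receptors (median log2 ratio -0.04) and Fdft1 of 15 cholesterol genes (0.45), where 4.57% of all genes were called higher.

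Nr4a1 and Srf were lower in batch 2 under all 20 alternative settings. Nr4a1, an orphan nuclear receptor and immediate early gene, stood at 110.2 and 139.3 CPM on the plates, 561.9 CPM in June29 (95% Poisson interval 557.5 to 566.4) and 303.3 CPM in June5. It was positive in 28.6% of thinned batch 2 cells (22 of 77, 18.8 to 40%), 49.4% of June29 cells (42 of 85, 38.4 to 60.5%) and 36.4% of June5 cells. Both plates were under both June sets, yet the single cells overlapped widely, from 0 to 1168 CPM in batch 2 and from 0 to 3939 CPM in June29. The log2 ratio was -2.18. Nr4a1 lies on chromosome 15 from 101254269 to 101274795, on the plus strand. Its relative Nr4a3 stood at 7.02 and 19.4 CPM against 52.7 CPM and 39.5 CPM in June5.

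Srf, the serum response factor, which binds CArG boxes in promoters of immediate early and actin genes, stood at 32.6 and 39.6 CPM on the plates, 167.7 CPM in June29 and 66 CPM in June5. It was positive in 18.2%, 48.2% and 50.0% of thinned cells, and its log2 ratio was -2.20. June29 was high in level, and both June sets were high in the share of positive cells. The gene lies on chromosome 17 from 46548329 to 46556175, on the minus strand.

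The promoters of Nr4a1 and Srf are shown because immediate early genes are known for the response elements beside their start sites. Each line gives the 250 bases before the start of the RefSeq gene on GRCm38.p6, 5′ to 3′ on the gene's strand, at chr15:101266596-101266845 for Nr4a1 and chr17:46556163-46556412 for Srf. Capitals mark the core of the cAMP response element, TGACG or CGTCA on the other strand, and CArG boxes.
Nr4a1: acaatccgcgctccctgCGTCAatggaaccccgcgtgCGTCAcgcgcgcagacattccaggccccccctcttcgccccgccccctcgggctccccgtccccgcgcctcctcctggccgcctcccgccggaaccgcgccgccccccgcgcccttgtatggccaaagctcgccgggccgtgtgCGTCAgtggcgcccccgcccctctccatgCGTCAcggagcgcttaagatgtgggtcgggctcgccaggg
Srf: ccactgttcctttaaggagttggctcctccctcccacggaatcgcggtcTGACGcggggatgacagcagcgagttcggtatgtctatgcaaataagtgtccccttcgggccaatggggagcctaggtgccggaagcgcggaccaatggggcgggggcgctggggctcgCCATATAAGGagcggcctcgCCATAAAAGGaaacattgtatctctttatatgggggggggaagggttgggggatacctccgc
The Nr4a1 window holds 4 of the TGACG cores, on both strands counted, and no full element TGACGTCA. Of 27025 such windows, 17.9% hold 1 or more of these cores and 0.152% hold 4 or more. The Srf window holds 2 CArG boxes and 1 core, and 0.0185% of windows hold 2 or more CArG boxes. A match is a description of these letters and not a measured binding site. Egr3, a zinc-finger immediate early gene, is named without a window.

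Few immediate early genes were called with Nr4a1. Of 27 tested genes of dissociation stress and immediate early response, 2 were lower (Nr4a1 and Egr3; 1.3% of all genes were) and 0 were higher. By sign, 16 were negative and 11 positive, with a median log2 ratio of -0.28 beside 0.16 for all genes. Egr3 stood at 7.53 and 8.33 CPM against 27.6 CPM and 21.4 CPM in June5. Fos, the best known of the class, went in the other direction, at 2546 and 1867 CPM on the plates against 1235 CPM in June29 and 945 CPM in June5, and was not called. Junb, its partner, stood at 1882 and 1417 CPM against 904 CPM. Egr1 stood at 730 and 306 CPM against 805 CPM, so that plate 1 lay near June29 and plate 2 under both. Without the cells that carried 2 or more markers of a haematopoietic type, 12 in batch 2 and 29 in June29, the list's median was 0.20. These cells were marked on unthinned reads. By the B cell list 24 of 87 June29 cells passed unthinned, and 4 of 85 after thinning. A well of June29 that received no cell held 25 reads of that list. The cells left out are therefore not taken to be haematopoietic, and why the sign changed was not tested.

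Skil, Map3k1, Bcl6, Malt1 and Tle2, which come from no common list, were also called lower in batch 2. Skil, a repressor of Smad signalling, stood at 27.4 and 12.2 CPM on the plates, 122.8 CPM in June29 and 83.3 CPM in June5. Map3k1, a kinase above the JNK pathway, stood at 22.8 and 9.96 CPM against 116.2 CPM and 33.6 CPM in June5. Bcl6, a transcriptional repressor, stood at 11.9 and 10.9 CPM against 53.8 CPM and 38.7 CPM. In all 3 genes both plates lay under both June sets. Malt1, a protease of NF-kB signalling, was at 0.318 and 2.44 CPM against 36.8 CPM and 39.7 CPM, and Tle2, a Groucho-type corepressor, at 0.826 and 4.22 CPM against 79.6 CPM and 42.5 CPM. Those lowest values rest on few cells, since Malt1 was positive in 17.6% of thinned June29 cells and Tle2 in 17.6%.

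Several genes with long transcripts were called lower in batch 2, and of those given here all but Pclo were chosen after their values were seen. Kmt2a, a histone H3 lysine 4 methyltransferase with a longest transcript of 16470 bases, stood at 96.9 and 94.2 CPM on the plates, 368 CPM in June29 and 179.1 CPM in June5. It was positive in 45.5% and 78.8% of the thinned cells of batch 2 and June29, and the median cell stood at 10.5 and 195 CPM. Kmt2d, its relative of 19823 bases, stood at 172.1 and 118.5 CPM against 501 CPM, with June5 at 149.9 CPM on the side of batch 2. Syne2, a giant nuclear envelope protein, stood at 131.9 and 83.1 CPM against 347 CPM and 160.8 CPM. Ubr4, a large ubiquitin ligase, stood at 112.3 and 32.7 CPM against 250.2 CPM and 90.3 CPM. Pclo, a scaffold protein of 20084 bases known from presynaptic terminals, stood at 3.33 and 5.42 CPM against 61.8 CPM and 15.5 CPM. These long genes were highest in June29 in each case, and June5 lay between or with batch 2.

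Among named genes, 9 lower ones were past the rule under all 20 alternatives: Armc7, Cnnm4, Map3k1, Mroh2a, Nr4a1, Nr4a3, Pclo, Skil and Srf. Mroh2a, a HEAT-repeat protein gene, stood at 14.9 and 14.7 CPM on the plates, 132.9 CPM in June29 and 355.5 CPM in June5. Cnnm4, a magnesium transporter, stood at 22.3 and 6.20 CPM against 107.1 CPM and 65.4 CPM. Cgn, cingulin of the tight junction, stood at 62 and 20.8 CPM against 206 CPM and 118.9 CPM. It was the 1 called gene of 24 keratins and junction genes, whose median was -0.39, where 1.3% of all genes were called lower.

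**Figure D2:**
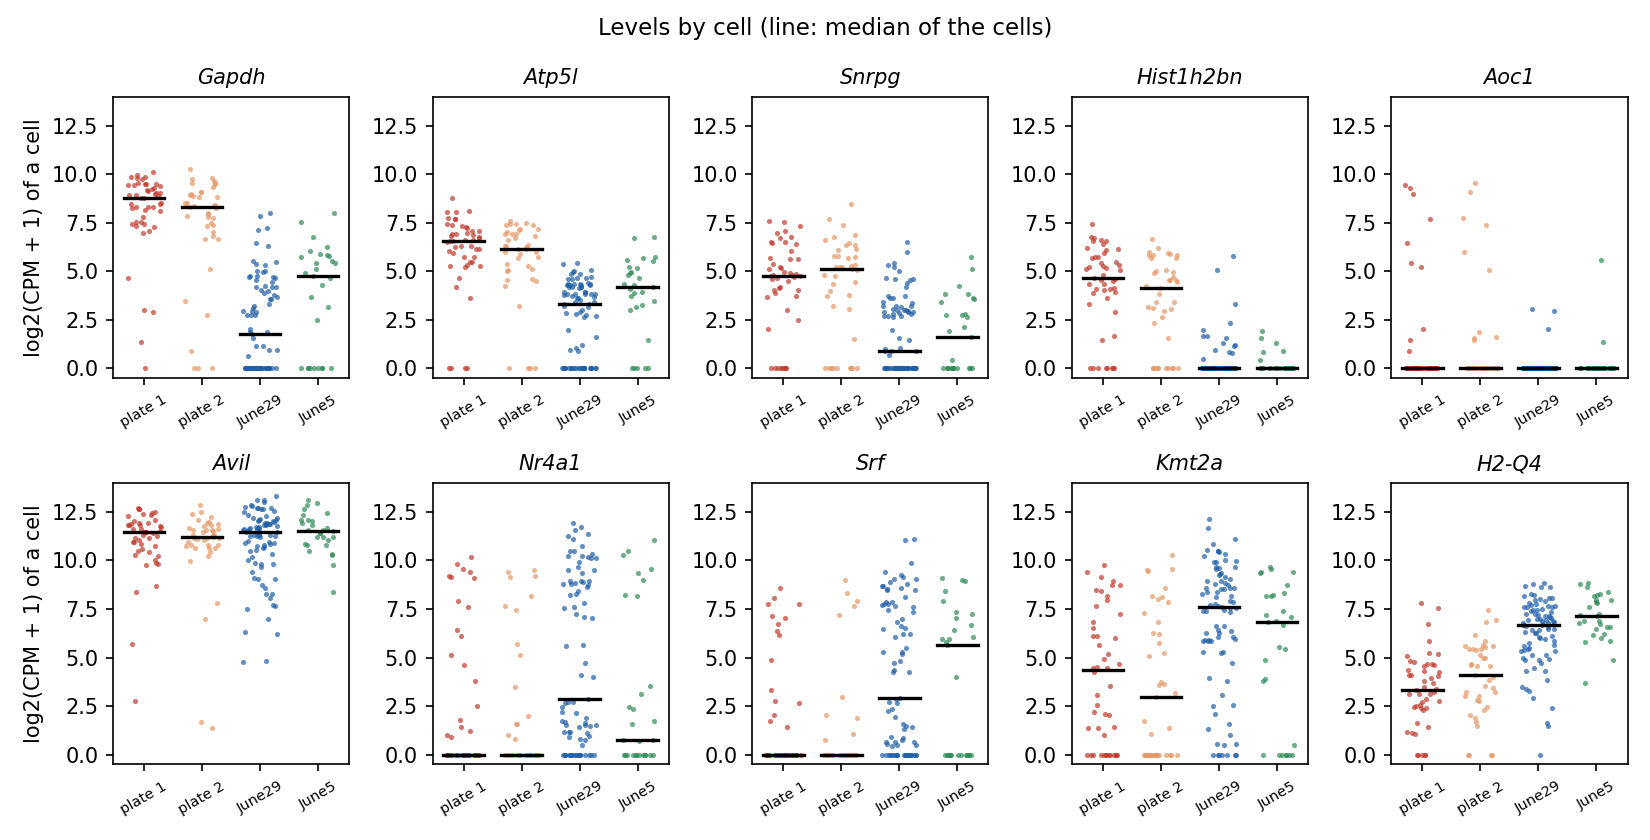
Level of 10 genes in each kept cell, as log2(CPM + 1), for plates 1 and 2 of batch 2, June29 and June5, with a line at the median of the cells. Gapdh, Atp5l, Snrpg and Hist1h2bn are high on both plates, Aoc1 is found in a few batch 2 cells, Avil has like medians in all sets, and Nr4a1, Srf, Kmt2a and H2-Q4 are higher in June29, with single cells of the sets overlapping.

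Few chaperones were called. Of 23 tested heat shock and chaperone genes, 1 was higher (Hspe1; 4.57% of all genes were). Another 2 were lower (Dnajb1 and Hspa1a; 1.3% of all genes were), and the list's median was 0.23. Hspa1a, an inducible Hsp70, stood at 72.9 and 90.2 CPM on the plates, 309.8 CPM in June29 and 311 CPM in June5. Its near-identical neighbour Hspa1b stood at 67.8 and 73.6 CPM, 328 CPM and 295.5 CPM. Since 70.1% of the words of Hspa1a occur elsewhere, the 2 genes are uncertain singly, but Hspa1a summed with the 4 entries it shares words with gave 152.9 and 639 CPM, a log2 ratio of -2.06. Dnajb1, the Hsp40 partner of Hsp70, stood at 285 and 148.2 CPM against 548 CPM, and plate 1 alone was within 2-fold of June29. The constitutive Hspa8 stood at 2154 and 1997 CPM against 1581 CPM. The promoter of Hspa1a, at chr17:34972157-34972406 on the minus strand, is shown as that of the inducible gene, with capitals at its 1 match to the paired heat shock unit GAANNTTC or TTCNNGAA.
Hspa1a: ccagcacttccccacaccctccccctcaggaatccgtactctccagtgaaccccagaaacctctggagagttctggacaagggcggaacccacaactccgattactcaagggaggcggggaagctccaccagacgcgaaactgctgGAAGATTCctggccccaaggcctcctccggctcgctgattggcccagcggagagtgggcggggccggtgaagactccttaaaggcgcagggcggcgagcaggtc
That unit occurs in 12.9% of the 27025 windows and was not found in the window of Dnajb1.

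Splicing and nuclear RNA genes leaned toward June29. Of 24 tested, 2 were lower in batch 2 (Tra2a and Luc7l3; 1.3% of all genes were) and 0 were higher. A negative log2 ratio was seen in 20, with a median of -0.47 against 0.16 for all genes. Malat1, a nuclear long noncoding RNA, stood at 7515 and 5949 CPM on the plates, 16674 CPM in June29 and 8121 CPM in June5. It was not called because it was found in nearly all cells. Luc7l3, a U1 snRNP-associated protein, stood at 68.7 and 54.7 CPM against 150 CPM and 86.3 CPM. June5 again lay nearer to batch 2 than June29 did for Malat1 and Luc7l3. The clock genes had a median of -0.84 over 14 tested. Nfil3 alone of them was called lower (1.3% of all genes were), at 28.4 and 3.41 CPM against 47 CPM and 61.9 CPM. Per1, a period gene, stood at 34.3 and 59.3 CPM against 192.2 CPM and 207 CPM and was not called. Arntl, which encodes the activator BMAL1, went the other way, at 97.3 and 90.05 CPM against 39.5 CPM and 45.7 CPM. The time of day of each collection is not given in the sources used here.

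Class I presentation genes leaned toward batch 2, although their 1 call was lower. Of 21 tested, 1 was lower in batch 2 (H2-Q4; 1.3% of all genes were), 0 were higher and 17 had a positive log2 ratio. The median was 0.53 beside 0.16 for all genes. The list summed to 23038.5 CPM in batch 2, 14903 CPM in June29 and 22409.5 CPM in June5. H2-Q4, a class Ib gene, stood at 21.4 and 25.9 CPM on the plates, 138.3 CPM in June29 and 197 CPM in June5, and was positive in 40.3%, 87.1% and 95.5% of thinned cells. With the entries H2-Q6 and Gm11131, which share its words, the sums were 510.0 CPM in batch 2 and 651 CPM in June29, so the gene cannot be separated from its family. H2-D1, a classical class I heavy chain, stood at 6875 and 8287 CPM against 4609 CPM, and B2m, its light chain, at 4942 and 6022 CPM against 3219 CPM. Of 9 class II genes and 22 interferon-stimulated genes tested, 0 were called, with medians of -0.31 and -0.23. Among all genes 4.57% were called higher and 1.3% lower.

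Other lists that describe a tuft cell also gave 0 calls. As 4.57% of all genes were called higher and 1.3% lower, 0 calls in lists this short is not read as stability. Taste transduction (12 tested) had a median of -0.32, eicosanoid synthesis (11) 0.41, and transcription factors of tuft cells (18) -0.14. Plcb2, the phospholipase of the taste cascade, had, with Matk, the lowest ratio of the tuft genes, at 654 and 710.5 CPM on the plates against 1351 CPM in June29. Gnat3, gustducin, stood at 1865 and 1854 CPM against 1322 CPM.

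**Figure D3:**
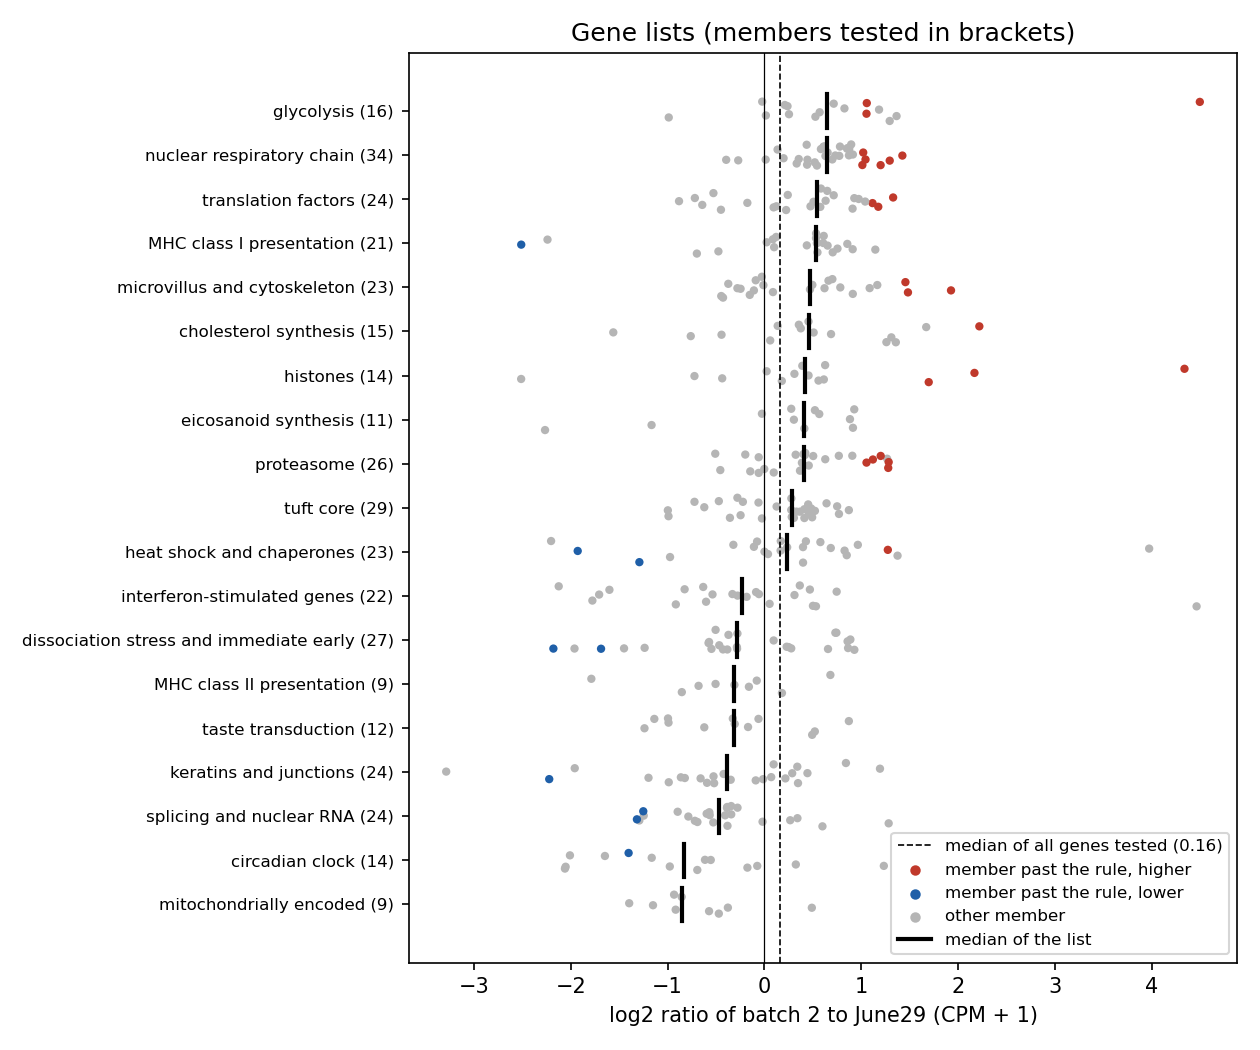
Log2 ratio of batch 2 to June29 (CPM + 1) for each tested member of 19 gene lists, in rows ordered by median, with called members coloured, a bar at each list's median and a dashed line at the median of all genes, 0.16. The nuclear respiratory chain (34 genes) and glycolysis (16) lie to the right, mitochondrially encoded genes (9), clock genes (14) and splicing genes (24) to the left, and the tuft list (29) spans the dashed line.

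The difference between the collections followed transcript length. Genes whose longest transcript is at most 1000 bases had a median log2 ratio of 0.63 (335 genes), those of 2000 to 3000 bases 0.40 (1636), those of 4000 to 5000 bases -0.00 (1217), and those over 10000 bases -0.56 (224). The share called higher in batch 2 was 11.9% in the shortest bin and 0.446% in the longest, and the share called lower was 0.597% and 5.36%. The higher genes had a median length of 2245 bases and the lower genes 5140.5, against 3437 for all. The median of June29 over June5 went from -0.25 in the shortest bin to 0.62 in the longest, and that of batch 2 over June5 from 0.35 to 0.03. Between the plates it went from -0.08 to -0.14. When each ratio was set against the median of genes of like length and GC content, 194 genes were higher and 92 lower, Gapdh, Atp5l, Nr4a1 and Srf among them. The length is that of the longest transcript, 3289 bases for Gapdh and 6310 for Atp5l. Atp5l was thus set against long genes, so its call could not be lost to the lean of short genes. Which transcripts gave the reads was not tested. Under that setting 22 of 37 list medians moved by 0.25 or more on the log2 scale and 15 did not.

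**Figure D4:**
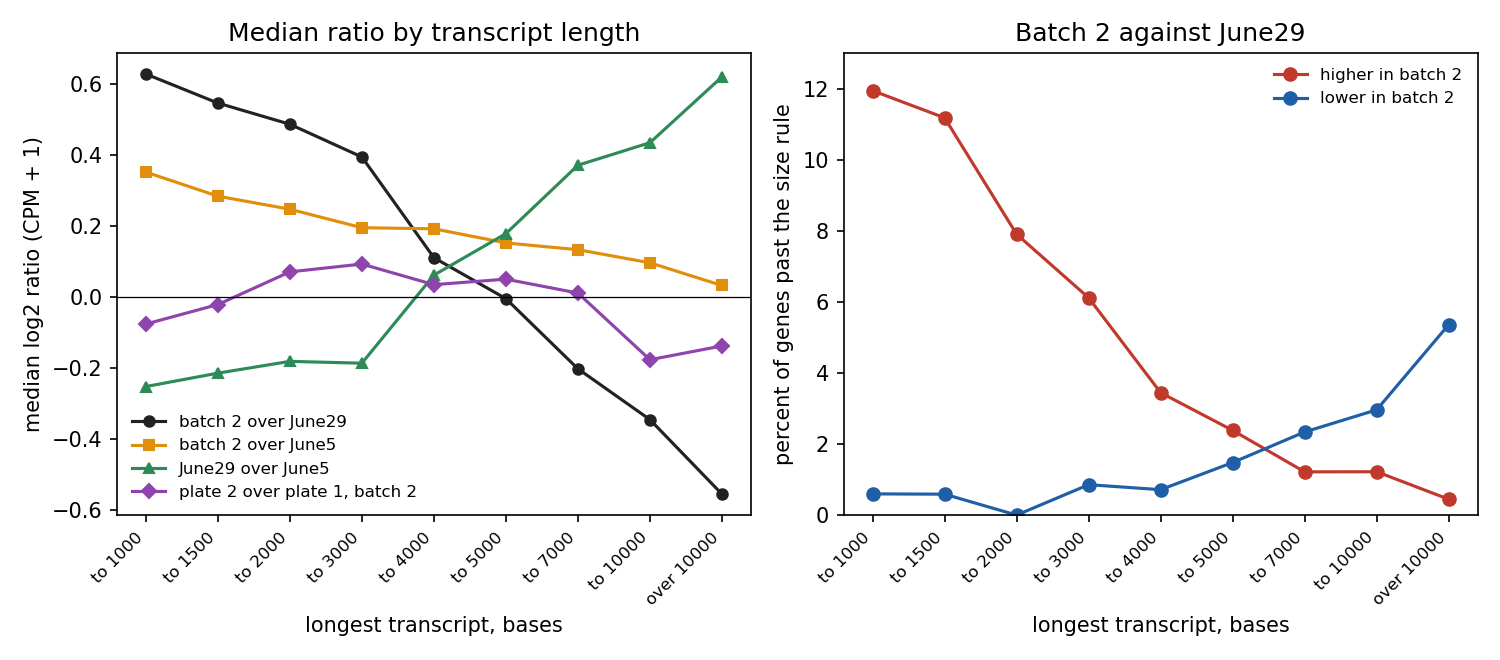
Left, median log2 ratio (CPM + 1) of the tested genes in 9 bins of longest transcript, in bases, for pairs of sets. Right, percent of genes in each bin called higher or lower in batch 2 than in June29. Batch 2 over June29 runs from 0.63 in the shortest bin to -0.56 in the longest, and the share called higher falls from 11.9% to 0.446%.

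Many of the higher genes have close copies. Words of 31 bases held by other genes made up a median of 5.32% of the words of higher genes, 1.73% of those of lower genes and 1.61% of those of all genes, and 48.9% of the higher and 71.6% of the lower genes had under 5%. How reads that match several genes were counted is not given in the sources used here. For 30.4% of the higher genes some other entry held 10% or more of the words, and adding those entries, a step chosen after seeing the data, took their median log2 ratio from 1.39 to 1.17. With the entries added, 70 of these genes stayed at 2-fold or more and 39 did not. Gapdh with its 48 entries stood at 494 CPM in batch 2 and 36 CPM in June29, a log2 ratio of 3.74. Atp5g2 with its 2 entries stood at 173.6 and 77.8 CPM, a ratio of 1.15, and Ndufs5 with 1 at 124.7 and 59.7 CPM, a ratio of 1.05. Fdft1 with its 2 entries dropped to 0.37. Atp5l was not itself among these genes, but Atp5l-ps2 summed with its 10 entries, Atp5l among them, had a ratio of 1.41. Over June5 the ratio of that sum was 0.23. The contrast for Gapdh therefore held with its copies added, and those for Atp5g2 and Ndufs5 were much smaller.

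For the called genes, June5 mostly lay on the same side of batch 2 as June29, with smaller ratios. For 305 of the 358 higher genes (85.2%) June5 was also under batch 2, and for 90 of the lower genes (88.2%) it was also above it. Among all tested genes of the same sign the shares were 71.2% of 4473 and 57.2% of 3365. Both comparisons use the same batch 2 cells. The size was smaller against June5, with 96 and 41 genes at 2-fold or more and medians of 0.59 and -0.77 in place of 1.32 and -1.58. June29 over June5 had medians of -0.79 and 0.76 for the same genes. By these medians June5 lay nearer to batch 2 for the higher genes and about midway for the lower ones. The genes were called for their gap to June29, however, so a smaller gap to another set follows in part from that choice. These medians therefore do not place June5 between the other sets. By the size rule itself batch 2 against June5 called 2.44% of 7839 genes higher and 4.26% lower, and June29 against June5, both of batch 1, called 1.28% of 7627 higher and 6.84% lower. Genes with both plates at least 2-fold above both June sets numbered 330 of 8951 (3.69%), and 210 lay under both (2.35%). Genes for which June29 alone was at least 2-fold above June5 and both plates numbered 318 (3.55%), and 326 lay under (3.64%). June29 thus stood apart from June5 and both plates about as often as batch 2 stood apart from both June sets.

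All 460 called genes had the same sign on both plates against June29. This is no separate check, because the plates make up the batch 2 pool on which the genes were called. The 50-cell well of batch 2, a bulk library of 50 sorted cells that its title calls wild-type, was not used to call genes. Its description names the count data of the other genotype in the series, so its genotype is in doubt. The well's median log2 ratio over June29 was 1.35 for the 358 higher genes and -1.49 for the lower ones, against -0.32 for all tested genes. Those genes were called on the same June29 values, so this ratio is no separate check. Over June5, which was not used to call genes, the medians were 0.51 and -0.88, against -0.15 for all tested genes. Gapdh stood at 691 CPM there, Nr4a1 at 201 CPM and Srf at 15.3 CPM. Sptssa, at 2.78 CPM, and Hspa1a, at 4.16 CPM, did not lie with the single cells of batch 2. In such a well fewer positive cells and less RNA per cell cannot be told apart.

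A well of June29 that received no cell held 9892 gene reads, 0.86% of the median June29 cell, and its reads bear on genes of low level. Of 211 testable genes with 5 or more reads there, 86 had as many as the median June29 cell or more. Nf1, a Ras GTPase-activating protein, had 3.32 times as many reads in that well as in the median June29 cell, which held 50, and it showed the widest gap in shares of all genes lower in batch 2, 14.3% against 82.4% of thinned cells. Vcam1, a cell adhesion protein, had 88 reads in the well and 38 in the median cell, with shares of 9.09% and 75.3%. Pik3ip1, an inhibitor of PI3 kinase, had 80 and 26 reads, and Dock10, a GTPase exchange factor, 60 and 20. The shares of Nf1, Vcam1, Pik3ip1 and Dock10 are therefore not read as expression in June29. Of the called genes, 3 of the 358 higher and 14 of the lower had 5 or more reads in that well. It held 0 reads of 280 of the higher and 46 of the lower genes, Gapdh, Atp5g2 and H2-Q4 among them.

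**Figure D5:**
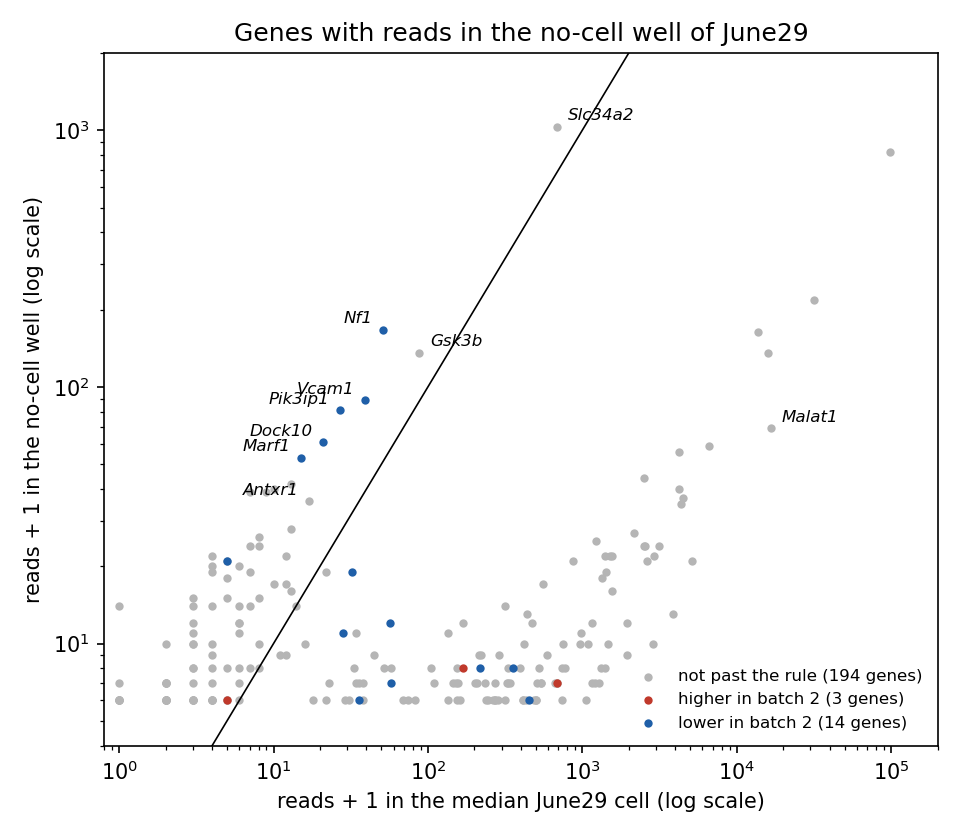
Reads of each gene in the no-cell well of June29 (vertical, reads + 1, log scale) against its reads in the median June29 cell (horizontal, reads + 1, log scale), for the 211 genes with 5 or more reads there. Nf1, at 3.32 times the 50 reads of the median cell, and Vcam1, with 88 and 38, hold more reads in the empty well than in the median cell.

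Markers of several other thymic cell types were low in both sets, and those of microfold cells and the haematopoietic surface genes were not. Microfold markers summed to 2180 CPM in batch 2 and 2158 CPM in June29, with 2 or more positive in 89.6% and 81.2% of thinned cells. The haematopoietic surface genes summed to 1540 and 1140 CPM, with 66.2% and 69.4% of cells, in wells sorted as CD45-. Dendritic cell or macrophage markers summed to 73.8 CPM in batch 2 and 131.3 CPM in June29, thymocyte markers to 153.2 and 61.6 CPM, and B cell markers to 278 and 209 CPM. At least 2 markers of the B cell list were positive in 9 of 77 and 4 of 85 thinned cells. Medullary markers of the low stage were positive in 24.7% of cells in both sets. Ciliated-cell markers summed to 833 and 328 CPM, with 1 batch 2 cell holding 33.2% of those reads, and corneocyte markers to 348 and 182.5 CPM, with 1 cell holding 80.1%. Tmem212, a gene of ciliated cells, stood at 95 and 47.6 CPM on the plates and was listed with 0 reads in both June sets, but only 3.90% of thinned cells were positive, and it was not called. Fabp5, a fatty acid binding protein, was called at 27 and 331 CPM against 8.92 CPM, although 1 cell held 81% of its batch 2 reads. Cell cycle genes were likewise carried by few cells, with Plk1 at 0 CPM on plate 1 and 89.1 CPM on plate 2. The part of such cells in the other results was not tested, apart from 2 alternatives. These left out the cells with haematopoietic markers in unthinned reads and the top cell of each gene.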

How the data were processed

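The authors deposited raw read counts per Ensembl gene and well, mapped to GRCm38 with STAR and counted with featureCounts 1.5.3 per the submitters' processing notes. The sources used here give no strand or multi-mapping settings. The authors' deposited score table was used only for its list of wells. Of 48887 entries, 48441 had a name in GENCODE M21 or were among 92 spike-ins, and 23672 were left out: X- and Y-linked, Gm-named, ribosomal protein, spike-in and unnamed entries. Wells were filtered, pooled by set and scaled to CPM with Python 3.11.15, numpy 2.4.6 and pandas 2.3.3. The TMM factors came from edgeR 4.0.16. Depth per cell sets the precision, with Poisson and exact binomial (Clopper-Pearson) 95% intervals and a limit of 3 counts for a count of 0. The size rule was also run on simulated cells, but no result of that run is given here and it lends the calls no support.

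Members and the 41 gene lists were chosen with earlier results of these data known. Named genes were the 15 highest and 15 lowest ratios with under 5% shared words, called list members and up to 4 abundant ones per list, the 6 most extreme each way with 30% or more shared words, and the 10 most extreme each way between plates and June sets. Others are said to be chosen after their values were seen, which holds for Nr4a3, Ndufs5, Ndufb4, Atp5l, Kmt2a, Kmt2d, Syne2, Ubr4, Nf1, Vcam1, Pik3ip1, Dock10, Fabp5 and Hspa1b too. Alternatives covered scaling, thresholds, thinning, cells, plates and genes entered.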

Additional observations from a re-analysis of the deposited data

How the results depend on the processing

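Of the genes entered, 4.57% were higher and 1.3% lower. These shares became 2.78% and 2.21% with unthinned shares of cells, and 6.8% and 3.09% with plate 2 of batch 2 alone. A positive cell at 1 read gave 2.33% lower, and cells with Y-linked reads and no Xist reads alone (22 in batch 2, 65 in June29) gave 5.58%. Genes with under 5% shared words gave 3.26% higher of 5363 entered, and ratios centred on genes of like GC content and length gave 2.48%. The other counts, over scaling, thresholds, filters, cells and the no-cell well, stayed within 1.5 times. June5 without the cells with haematopoietic markers lay on the June29 side for 291 and 77. Genes with both plates 2-fold above both June sets went from 3.69% (330 genes) to 2.44% (218) at CPM + 5, 2.72% at 50 CPM and 3.56% (219) with few shared words, and those under both from 2.35% (210) to 1.64% (87) at 50 CPM. These last alternatives, and leaving out genes with reads in the no-cell well, were chosen after seeing the data. Of 96 called named genes, 12 were past the rule under all 20 alternatives and 23 when the restriction to few shared words is not counted. Atp5b, Atp5d and Ldha were lost under 10 or more, and the ratio of Psmd2 turned to -0.032 among cells with Y-linked reads. The cause was not tested. No paired analysis was possible because well numbers name positions on a plate and pair no cells across sets. With 1 sample per set, depth limits shares of genes near 5 reads per cell.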
